A study of Mus musculus with 2 samples.

Results

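Inflammasomes are cytosolic complexes in which a sensor protein recruits an adaptor and activates an inflammatory caspase. The caspase matures interleukin-1 family cytokines and cleaves gasdermin D, whose freed end opens pores in the plasma membrane and ends in pyroptosis, a lytic form of cell death. In tumours the pathway is best known from myeloid cells, while gasdermin E, cut by caspase-3, can turn apoptosis of a tumour cell into lysis. The transcripts described here were 8 of the 33696 genes of the count matrix, chosen by symbol as the core of this pathway and each matched to 1 gene of the deposited gene table. They were 3 sensors (Nlrp3, ENSMUSG00000032691, which answers to potassium loss and many other disturbances; Aim2, ENSMUSG00000037860, which binds DNA in the cytosol; Nlrc4, ENSMUSG00000039193, which answers to bacterial proteins through its NAIP partners) and the adaptor ASC (Pycard, ENSMUSG00000030793). The other 4 were the caspases Casp1 (ENSMUSG00000025888) and Casp4 (ENSMUSG00000033538, caspase-11, a sensor of bacterial lipopolysaccharide) and the pore formers Gsdmd (ENSMUSG00000022575) and Gsdme (ENSMUSG00000029821).

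The study set a subcutaneous tumour of 4T1 cells, a mouse breast cancer line, given an agent named PCN in the labels and PATCH in the series title, against a tumour given PBS, a salt solution. Both groups were labelled wild type, with 1 single-cell library each, made with Chromium 3′ v3 reagents, and the labels used here gave no mouse strain, age, dose, time or number of animals. Counts of the PBS library were not analysed here, so every value describes the treated library and none compares treatment with PBS. Each transcript molecule counted is a unique molecular identifier (UMI).

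The matrix held 12309 barcodes, of which the authors kept 10835 cells with 60652188 UMIs (per cell, medians of 3575 UMIs and 1512 genes). The authors' lists of kept cells for the treated and PBS libraries shared 33 barcodes. Cells were put in 5 classes by the share of their UMIs in a few marker genes, none of them a gene described here. The neutrophil class held 3518 cells (32.5% of the kept cells, median 1698 UMIs), the fibroblast class 325 cells (3.0%, 11662 UMIs) and the tumour class 322 cells (2.97%, 11176.5 UMIs). The T/NK class held 238 cells (2.20%, 2916.5 UMIs), the macrophage class 4672 cells (43.1%, 7168.5 UMIs), and 1760 cells (16.2%, 2699 UMIs) met no rule. For each class, all 6 marker genes that its rule did not use were at their highest of the 5 classes in that class, which fitted the names. The macrophage class was broad. Of the monocyte genes checked, Ccr2 was highest there (245 CPM), Ly6c2 in T/NK cells, and Vcan and Plac8 in fibroblasts. In the clustering below it also took in 179 cells of a cluster led by Ccl17, Cd209a, Timd4 and the dendritic cell gene Flt3, and 165 of the Oscar cluster. The labels give breast cancer as the cell type, and most kept cells carried the markers of macrophages or neutrophils. The class rules are cuts on a range: within 20 percent of its cut, the neutrophil rule had 127 cells above and 148 below, the macrophage rule 183 and 345, and the other 3 rules 7 to 14 above and 5 to 35 below. Doublet calling marked 0 cells and had not worked, and 311 cells of the neutrophil class also met the rule of another class. Levels are given in CPM, in which the UMIs of a gene are added up over the class and scaled to a common total. The comparison for a class is the ratio of its CPM to that of the remaining kept cells, called the other kept cells below. Intervals are 95% intervals, exact Poisson for levels and ratios and exact Clopper-Pearson for shares, and they cover counting error only. A single library gives no replicate to test against, so no p-value is given.

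The 8 genes lie apart in the mouse genome except for the caspases, which are neighbours on chromosome 9. In the GENCODE M21 annotation of GRCm38, Casp1 spans chr9:5298517-5307265 and Casp4 chr9:5308828-5336783, both on the plus strand, with 1562 bases between them. Nlrp3 lies at chr11:59541568-59566956 on the plus strand, where no other annotated gene overlaps it. Aim2 (chromosome 1), Pycard (chromosome 7) and Gsdme (chromosome 6) each overlap a gene on the opposite strand (Cadm3, Gm45205 and Mpp6), and Nlrc4 (chromosome 17) overlaps CT033749.1 on its own strand. Reads of such pairs may be split or shared in ways the sources used here do not record. The build that the deposited counts were aligned to is not given in the sources used here, so these positions place the genes and were not used for any value.

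The promoters of Nlrp3 and Casp4 are shown, and both genes had their highest class level in neutrophils, as given below. Gsdme was also highest there, though not separated from tumour cells, and its window held no match to the letters marked below. RefSeq promoter windows of GRCm38.p6, 250 bases before to 50 bases after a start, were found for 7 of the 8 genes, all but Gsdmd. Nlrp3 and Casp4 had 2 windows each and the other genes found had 1 each. More sequence was thus searched for Nlrp3 and Casp4, while the shares of all windows below are per window. Of 5 short motifs searched on both strands, chosen after the levels were seen, GGGNNTTCC, a form of the kB element bound by NF-kB, was found in the windows of Casp4 and Nlrp3 and in 5.82% of all 32851 windows. For each of the 2 genes 1 window is printed, the first along the chromosome, and distances to the start refer to that window. The printed stretches end where an annotated exon begins, run 5′ to 3′ on the plus strand, and mark the kB letters in capitals.
Nlrp3 (chr11:59541319-59541567): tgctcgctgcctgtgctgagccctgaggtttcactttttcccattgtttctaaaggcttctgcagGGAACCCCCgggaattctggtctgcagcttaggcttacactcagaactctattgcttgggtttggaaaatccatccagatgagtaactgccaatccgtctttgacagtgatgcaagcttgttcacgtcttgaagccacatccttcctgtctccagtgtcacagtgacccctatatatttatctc
Casp4 (chr9:5308599-5308827): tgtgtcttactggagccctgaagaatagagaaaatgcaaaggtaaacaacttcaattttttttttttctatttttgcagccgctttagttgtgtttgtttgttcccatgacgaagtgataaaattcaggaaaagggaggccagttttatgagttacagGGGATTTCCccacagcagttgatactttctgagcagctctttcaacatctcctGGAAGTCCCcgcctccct
In Nlrp3 the element GGAACCCCC began 185 bases before the start and matched on the minus strand. In Casp4 there was 1 match on each strand, GGGATTTCC beginning 92 bases and GGAAGTCCC 39 bases before the start. GAGGAAGT, an element of the myeloid factor PU.1, was found in the windows of Aim2 and Pycard and in 3.20% of all windows. An interferon response element, GAAA repeated after any 2 bases (3.44% of all windows), the STAT element TTCNNNGAA (8.30%) and the AP-1 element TGANTCA (7.81%) were in none of the 7 members' windows. A match describes letters in a window, not a bound site.

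**Figure D1:**
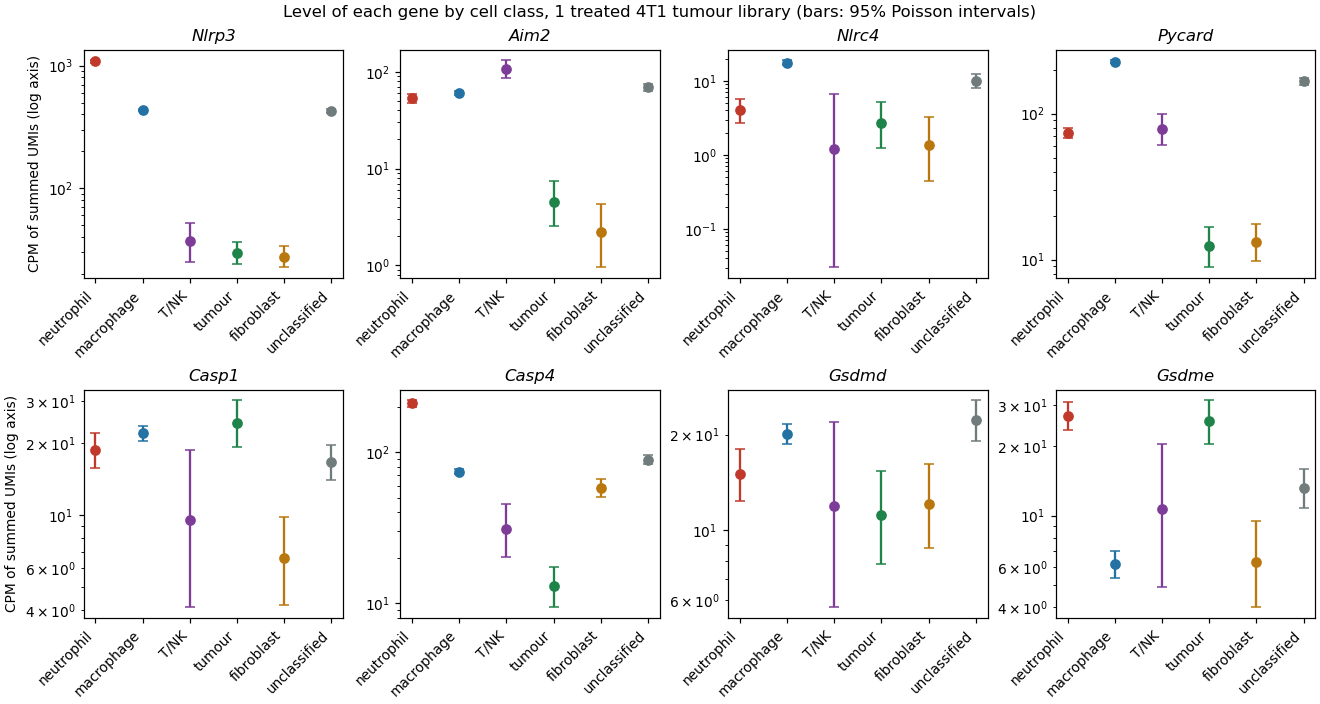
Level of each gene (CPM of summed UMIs, log axis) in the 5 cell classes and in the unclassified cells of the treated library, with 95% Poisson intervals as bars. Nlrp3 and Casp4 stood highest in the neutrophil class (1081 and 210 CPM), Pycard and Nlrc4 in the macrophage class (227 and 17.6 CPM) and Aim2 in the T/NK class (107 CPM), while the Casp1 intervals of tumour, macrophage and neutrophil cells overlap.

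Among the sensors, Nlrp3 was a transcript of neutrophils and macrophages. It was found at 1081 CPM in neutrophils (8138 UMIs; interval 1058 to 1105), 435 CPM in macrophages (16117 UMIs; 428 to 441) and 426 CPM in the unclassified cells. It stood at 36.9 CPM in T/NK cells, 29.8 CPM in tumour cells and 27.7 CPM in fibroblasts, 3 levels that counting error does not separate. The neutrophil level was 2.89 times that of all other kept cells (interval 2.82 to 2.97) and 2.49 times that of macrophages (2.42 to 2.56), on the CPM scale. The first ratio was 5.66 with the other classes at equal weight and 8.001 with the median of all genes set to 1. Per cell the order turned round, with 2.31 Nlrp3 UMIs in a neutrophil and 3.45 in a macrophage, since neutrophils held fewer UMIs. The macrophage and unclassified levels did not differ beyond counting error (ratio 1.02, interval 0.983 to 1.06).

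The share of cells with an Nlrp3 UMI was 67.0% in neutrophils and 69.4% in macrophages, against 14.2% in fibroblasts, 13.4% in tumour cells and 5.04% in T/NK cells. Each cell was then thinned to 1000 UMIs, which left out 915 shallower cells, 531 of them neutrophils, 120 macrophages, 44 tumour cells, 9 T/NK cells and 5 fibroblasts. After thinning the shares were 54.6% in neutrophils (interval 52.8 to 56.4%), 28.6% in macrophages (27.3 to 29.96%), 3.96% in tumour cells, 1.75% in T/NK cells and 0.625% in fibroblasts. Shares that lay close together with all UMIs were thus apart at equal depth. Markers of other cell types stood beside the low levels of the last 3 classes, and the part of free RNA in those levels was not tested. S100a8 and S100a9 (neutrophil transcripts) and C1qa, C1qb and C1qc (macrophage transcripts) were counted in each of them. Estimates from these genes, here and below, cover free RNA of neutrophils and macrophages only, and its part was not tested for any member. At the ratios in which neutrophils and macrophages hold Nlrp3 to these genes, 50.6 Nlrp3 UMIs would accompany them in fibroblasts, 61.6 in tumour cells and 13.7 in T/NK cells, against 101, 99 and 31 counted.

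Aim2 had its highest class level in T/NK cells, at 107 CPM (90 UMIs; interval 86.1 to 132). The level was 68.9 CPM in the unclassified cells, 60.1 CPM in macrophages and 53.1 CPM in neutrophils, and each of these neighbours differed beyond counting error. Tumour cells held 15 UMIs (4.51 CPM) and fibroblasts 8 UMIs (2.20 CPM), which were not separated. The T/NK level was 1.99 times that of the other kept cells (1.60 to 2.45), just short of 2-fold. An Aim2 UMI was found in 24.4% of T/NK cells, 31.0% of macrophages and 9.15% of neutrophils. At equal depth the shares were 8.73% (5.42 to 13.2%), 5.91% (5.24 to 6.63%) and 5.46% (4.67 to 6.33%), so that the T/NK and macrophage intervals overlap. Free RNA at the ratios above would bring 1.497 Aim2 UMIs to the T/NK class, against 90 counted.

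Nlrc4 was mostly a macrophage transcript. Macrophages held 652 of its 779 UMIs in kept cells, 83.7%, at 17.6 CPM (16.3 to 18.99), 3.26 times the other kept cells (2.69 to 3.98). The unclassified cells were at 9.96 CPM and neutrophils at 3.99 CPM (30 UMIs). Tumour cells, fibroblasts and T/NK cells held 9, 5 and 1 UMIs, levels that were not separated from each other, nor the tumour level from that of neutrophils. A UMI was found in 11.96% of macrophages and 0.824% of neutrophils, and in 1.69% and 0.301% at equal depth.

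Pycard, the adaptor that links sensors to caspase-1, was also highest in macrophages. Its level there was 227 CPM (8411 UMIs; 222 to 232), 2.58 times the other kept cells (2.45 to 2.70). Unclassified cells were at 166 CPM, T/NK cells at 78.5 CPM (66 UMIs) and neutrophils at 73.7 CPM (555 UMIs), the last 2 not separated by counting error. Fibroblasts and tumour cells were at 13.2 and 12.3 CPM, also not separated. Neutrophils therefore combined the highest Nlrp3 level with a Pycard level 0.394 times that of the other kept cells (0.361 to 0.430). The median ratio of all genes in neutrophils was 0.362, and with that median set to 1 the Pycard ratio was 1.09. A Pycard UMI was found in 64.5% of macrophages and 10.3% of neutrophils, and at equal depth in 18.0% (16.9 to 19.1%) and 4.75% (4.02 to 5.58%). In the 3 classes with neither marker set of their own, free RNA would bring 5.13 of the 66 T/NK UMIs, 19.5 of the 48 fibroblast UMIs and 27.5 of the 41 tumour UMIs.

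Casp1, the caspase of the canonical pathway, was the more even of the caspases. It stood at 24.3 CPM in tumour cells (81 UMIs; 19.3 to 30.3), 22.0 CPM in macrophages (815 UMIs), 18.7 CPM in neutrophils (141 UMIs) and 16.6 CPM in the unclassified cells, with 9.52 CPM in T/NK cells (8 UMIs) and 6.59 CPM in fibroblasts (24 UMIs). No neighbours in this order differed beyond counting error, although the tumour and fibroblast intervals at its ends did not overlap. At the marker ratios above, free RNA would bring 2.78 of the 81 tumour UMIs. A Casp1 UMI was found in 20.8% of tumour cells, 14.6% of macrophages and 3.72% of neutrophils, shares that followed depth: at 1000 UMIs per cell they were 1.80%, 2.20% and 2.18%.

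Casp4 levels were further apart. Neutrophils were at 210 CPM (1581 UMIs; 200 to 221), 2.97 times the other kept cells (2.80 to 3.15), followed by the unclassified cells at 89.2 CPM, macrophages at 74.0 CPM, fibroblasts at 57.9 CPM (211 UMIs), T/NK cells at 30.9 CPM (26 UMIs) and tumour cells at 12.9 CPM (43 UMIs). Every step of this order was larger than counting error. As with Nlrp3, the neutrophil value was high on the CPM scale and not per cell, with 0.449 UMIs in a neutrophil, 0.587 in a macrophage and 0.649 in a fibroblast. At equal depth a Casp4 UMI was found in 19.3% of neutrophils (17.9 to 20.7%), 6.72% of macrophages (6.01 to 7.49%) and 4.38% of fibroblasts (2.41 to 7.23%). Of the 211 fibroblast UMIs, free RNA would bring 8.99 at the marker ratios, and its part was not tested.

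Gsdmd, the pore former cut by caspase-1 and caspase-11, differed little between classes. It stood at 22.2 CPM in the unclassified cells, 20.1 CPM in macrophages (747 UMIs), 15.01 CPM in neutrophils (113 UMIs), 12.1 CPM in fibroblasts (44 UMIs), 11.9 CPM in T/NK cells (10 UMIs) and 11.1 CPM in tumour cells (37 UMIs). Of neighbours in this order only macrophages and neutrophils differed beyond counting error, with a ratio of 1.34 (1.10 to 1.65). No class was past 2-fold of the other kept cells, the ratios running over the 5 classes between 0.581 in tumour cells and 1.23 in macrophages.

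Gsdme, the pore former cut by caspase-3, was highest in neutrophils and tumour cells, at 27.1 CPM (204 UMIs; 23.5 to 31.1) and 25.5 CPM (85 UMIs; 20.4 to 31.6), which were not separated. The unclassified cells were at 13.1 CPM, T/NK cells at 10.7 CPM (9 UMIs), fibroblasts at 6.31 CPM (23 UMIs) and macrophages at 6.15 CPM (228 UMIs). Against the other kept cells the ratio was 3.18 in neutrophils (2.68 to 3.76), 2.56 in tumour cells (2.01 to 3.22) and 0.338 in macrophages (0.286 to 0.398). As a mean over cells the tumour ratio was 1.41, and on UMIs per cell the macrophage ratio was 0.701, neither past 2-fold. Per cell, tumour cells held the most, at 0.264 UMIs, against 0.0580 in a neutrophil and 0.0488 in a macrophage. In the tumour class, free RNA would bring 0.982 Gsdme UMIs at the marker ratios. A UMI was found in 20.5% of tumour cells and 4.97% of neutrophils, and at equal depth in 2.88% (1.25 to 5.59%) and 2.28% (1.77 to 2.88%). The classes with the most Gsdme and those with the most Nlrc4 and Pycard were thus different ones.

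**Figure D2:**
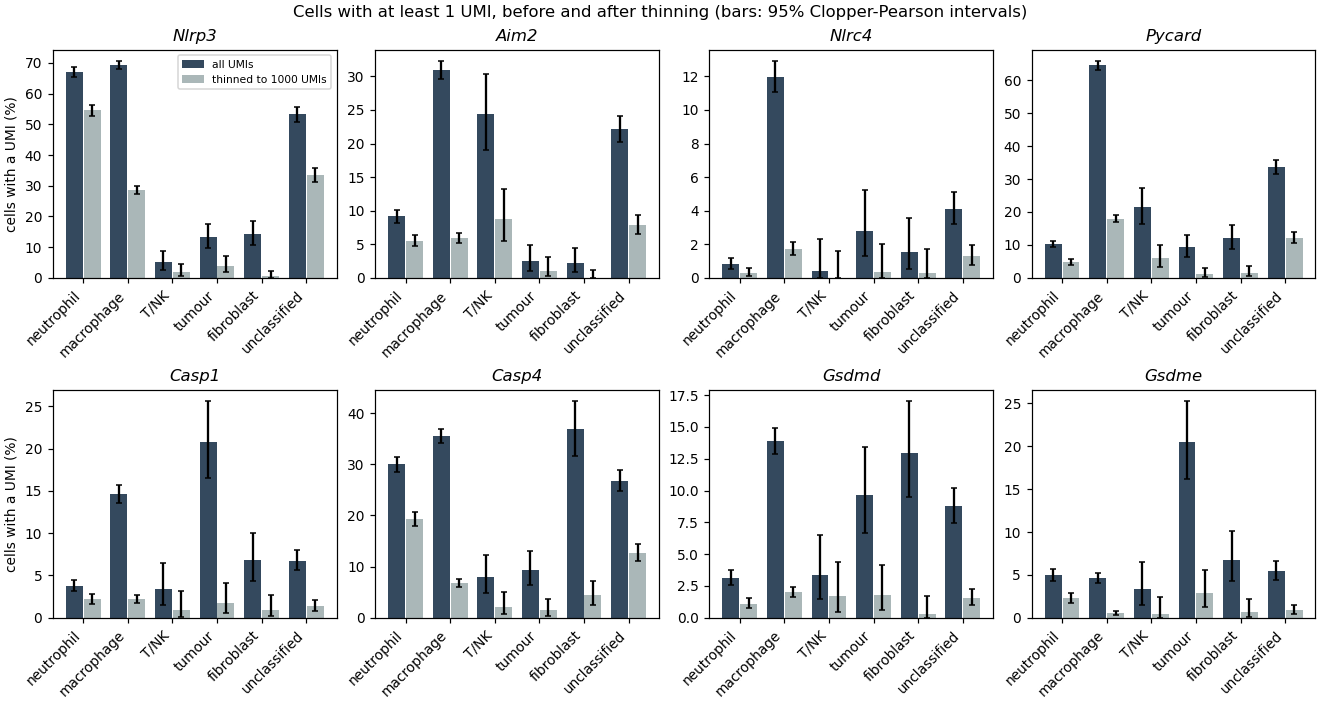
Percentage of cells with at least 1 UMI of each gene in the 5 classes and the unclassified cells, with all UMIs (dark bars) and after thinning every cell to 1000 UMIs (light bars), with 95% Clopper-Pearson intervals. For Nlrp3 the shares of neutrophils and macrophages are close with all UMIs (67.0% and 69.4%) and apart after thinning (54.6% and 28.6%).

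Taken class by class, ratios of at least 2 or at most 0.5 to the other kept cells were counted beside the same counts over 16445 genes with at least 20 UMIs. In neutrophils 5 of the 8 genes were past 2-fold in either direction, where 69.5% of all genes were. Of these 3 were at least 2 times (Nlrp3, Casp4, Gsdme; 10% of all genes) and 2 at most 0.5 times (Nlrc4, Pycard; 59.5%). The median ratio of the 8 genes was 0.953 and that of all genes 0.362. The split followed the scaling. With the median of all genes set to 1, 6 were at least 2 times (Aim2, Casp1 and Gsdmd added) and 0 at most 0.5 times. On UMIs per cell, with no scaling to depth, 0 were at least 2 times and 5 at most 0.5 times (Aim2, Casp1 and Gsdmd added to Nlrc4 and Pycard). Per cell the 3 ratios that were high in CPM lay below 1, at 0.852 for Nlrp3, 0.875 for Casp4 and 0.937 for Gsdme. In macrophages 3 were past 2-fold (32.4% of all genes), with 2 at least 2 times (Nlrc4, Pycard; 6.71%) and Gsdme at most 0.5 times (25.6%), and a median of 1.27 beside 0.903 for all genes. Per cell, 5 were at least 2 times in macrophages (Aim2, Casp1 and Gsdmd added) and 0 at most 0.5 times. On the CPM scale, macrophages and neutrophils thus carried different members of the pathway at their highest levels. Per cell, Nlrp3 and Casp4 were higher in macrophages than in neutrophils.

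In the other 3 classes most members were low. In tumour cells 6 of 8 were past 2-fold (52.3% of all genes), with Gsdme at least 2 times (25.8%) and 5 at most 0.5 times (Nlrp3, Aim2, Nlrc4, Pycard and Casp4; 26.5%), and a median ratio of 0.171 beside 1.13 for all genes. In fibroblasts 5 were past 2-fold (45.4% of all genes), with 0 at least 2 times (19.2%) and 5 at most 0.5 times (the sensors, Pycard and Casp1; 26.2%), and a median of 0.209 beside 0.920. In T/NK cells 5 were past 2-fold (54.5% of all genes), with 0 at least 2 times (19.0%) and 5 at most 0.5 times (Nlrp3, Nlrc4, Pycard, Casp1 and Casp4; 35.5%), and a median of 0.463 beside 0.888. With the median of all genes set to 1, 1 was at least 2 times in T/NK cells (Aim2) and 3 at most 0.5 times. The other cells of each of these ratios were mostly myeloid.

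Cells in which the whole canonical chain was detected were rare at this depth. A UMI of a sensor was found in 69.1% of neutrophils and 76.7% of macrophages, and a sensor together with Pycard in 7.28% of neutrophils (256 cells) and 55.2% of macrophages (2577 cells). At 1000 UMIs per cell the sensor shares were 56.8% and 33.9%, in the opposite order, and the shares with Pycard 2.44% and 5.87%. With Casp1 added to all UMIs, 14 neutrophils and 464 macrophages remained, and with Gsdmd added 2 neutrophils and 104 macrophages, or 0.0569% (interval 0.00689 to 0.205%) and 2.23% (1.82 to 2.69%). No fibroblast, tumour or T/NK cell held a UMI of all of them, and the limit of 3 counts for a count of 0 allows shares of up to 0.923%, 0.932% and 1.26% of cells with such UMIs. After thinning to 1000 UMIs no cell of any class did, a share of at most 0.0302% of the 9920 thinned cells, so the counts before thinning move with depth. Casp4 with Gsdmd, the pair of the non-canonical pathway, was found in 5.65% of macrophages (264 cells), 6.46% of fibroblasts (21 cells) and 0.796% of neutrophils (28 cells). At 1000 UMIs per cell the pair was in 0.154% of macrophages (7 cells) and 0.234% of neutrophils (7 cells). No fibroblast held it, where the limit of 3 counts allows up to 0.938%. These few cells do not order the classes at equal depth. At equal depth, 48.4% of macrophages, 32.1% of neutrophils and 87.1% of tumour cells held no UMI of any of the 8 genes.

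Levels also differed between cells of the same class. The kept cells were clustered without the 8 genes and without the other pathway genes listed below, into 23 clusters, and those with at least 50 neutrophils were compared by the cells of the class alone. A cluster led by Camp, Ngp, Ltf and Ly6g, genes of neutrophil granules and of maturing neutrophils (286 cells, median 4297.5 UMIs), had 128 CPM of Nlrp3, 0.0993 times the rest of the class (0.0849 to 0.115). Clusters led by Retnlg (625 cells) and by Siglecf (1227 cells) had 840 and 1410 CPM. The cluster led by Mreg, Cldn1, Hcar2 and Csta3 (1144 cells) had 1750 CPM, 2.05 times the rest (1.96 to 2.14). Nlrp3 thus spanned 13.7-fold within 1 class, from the granule-gene cluster to the Mreg cluster.

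Aim2 ran the same way, at 8.84 CPM in the granule-gene cluster (12 UMIs), 26.8 in the Retnlg cluster, 66.0 in the Siglecf cluster and 91.4 CPM in the Mreg cluster. Gsdme ran the other way over the same 4 clusters, at 47.9, 37.9, 29.0 and 8.87 CPM, and its interval in the Mreg cluster (5.17 to 14.2, 17 UMIs) lay below that in each of the other 3. Casp1 and Gsdmd were also lowest of these 4 in the Mreg cluster, at 6.79 CPM (13 UMIs) and 5.74 CPM (11 UMIs), against 25.04 and 18.4 CPM in the granule-gene cluster. The cluster with the most Nlrp3 thus held the least Gsdme, Casp1 and Gsdmd of these 4. Depth moved with these levels: in the shallower neutrophils (1756 cells, median 1233 UMIs) Nlrp3 was at 1372 CPM and Pycard at 51.6 CPM, against 969 and 82.3 CPM in the deeper ones (1762 cells, median 2363.5 UMIs). The part of depth in the differences between clusters was not tested.

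Another neutrophil cluster was led by Cmpk2, Rsad2 and Isg20, genes induced by interferon (131 cells, median UMIs of the whole cluster 1554.5). It had the highest Casp1 and Casp4 levels of the class, 80.9 CPM (18 UMIs; 47.9 to 128) and 463 CPM (103 UMIs; 378 to 561), or 4.80 times (2.75 to 7.91) and 2.29 times (1.85 to 2.79) the rest of the class. Its Nlrp3 level was 1428 CPM, next to that of the Siglecf cluster. Its Pycard level was the lowest of the class, 22.5 CPM on 5 UMIs. Both caspases were thus high together there, and Gsdmd was at 1 UMI.

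**Figure D3:**
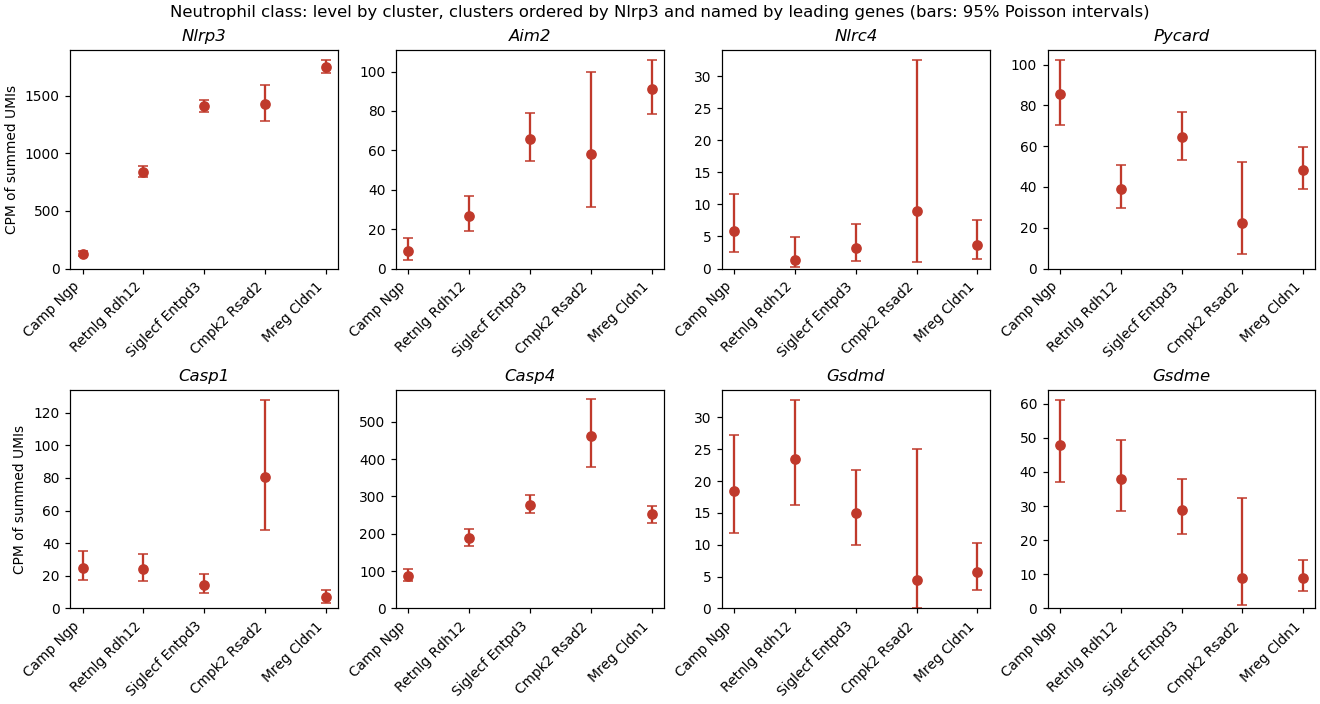
Level of each gene (CPM of summed UMIs, with 95% Poisson intervals) in the 5 clusters with at least 50 cells of the neutrophil class, ordered by Nlrp3 and named by their leading genes. Nlrp3 runs between 128 CPM in the Camp cluster and 1750 CPM in the Mreg cluster, and Casp1 and Casp4 are highest in the interferon-gene cluster. Gsdme is lowest in the Mreg cluster (8.87 CPM). The interferon-gene cluster, at 8.98 CPM of Gsdme, rests on 2 UMIs with a wide interval (1.09 to 32.5).

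The macrophage class fell into 10 clusters of at least 50 cells. Nlrp3 was highest in the cluster led by Alox15, Adamdec1 and Lilra5 (722 cells), at 619 CPM (601 to 637), and lowest in the one led by Gdf15, Cacnb4 and Cd36 (751 cells), at 116 CPM (104 to 129), a 5.34-fold span. The Alox15 cluster also had the highest Nlrc4 level, 27.9 CPM and 1.87 times the rest of the class (1.58 to 2.21). The Gdf15 cluster, whose cells were shallow (median UMIs of the whole cluster 2800), was lowest in Nlrp3, Pycard (146 CPM) and Gsdme (2.46 CPM, 7 UMIs) and had the highest Casp1 level of the class, 36.6 CPM (29.9 to 44.4). Nlrp3 and Nlrc4 thus did not peak in the cluster with the highest Casp1 level. The interval of that Casp1 level overlapped the one in the cluster led by Cxcl11 (34.1 CPM, 27.4 to 42.0). There the sensor Aim2 was at 78.6 CPM and 1.34 times the rest of the class (1.16 to 1.55).

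Casp4 was highest in the cluster led by Tppp, Lyve1, Cd5l and Cd163, genes known from resident macrophages (704 cells), at 143 CPM and 2.34 times the rest (2.16 to 2.54), while Nlrp3 there was at 0.501 times (0.474 to 0.529). Gsdmd was highest in the cluster led by the interferon-induced genes Cxcl11 and Ly6i (314 cells), at 41.4 CPM (34.0 to 50.02) and 2.24 times the rest (1.81 to 2.74). Casp1 was at 34.1 CPM and 1.62 times in the same cluster, and Casp4 at 1.24 times. So in the interferon-gene clusters Casp1 and Casp4 were above the rest of the class in macrophages as in neutrophils, and Gsdmd in the macrophage cluster. Both caspases were also above the rest in the Tppp and Lyve1 cluster, where Casp1 was at 32.4 CPM and 1.62 times (1.37 to 1.91). Pycard was highest in the cluster led by Dmkn and Apoc1 (335 CPM, 501 cells), which also had the monocyte gene Vcan among its leading genes. Aim2 and Gsdme were highest in the cluster led by H1f5, Nusap1 and other genes of dividing cells (85.5 and 10.8 CPM).

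**Figure D4:**
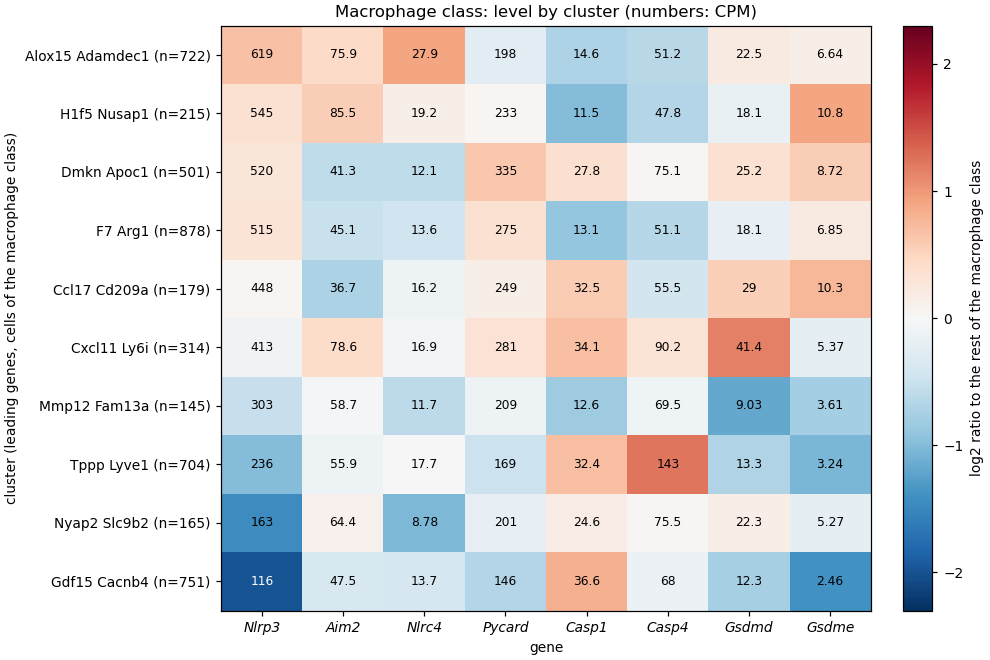
Level of each gene in the 10 clusters with at least 50 cells of the macrophage class (rows, named by leading genes), coloured by the log2 ratio to the rest of the class with the CPM printed in each field. Nlrp3 is highest in the Alox15 cluster (619 CPM), Casp4 in the Tppp and Lyve1 cluster (143 CPM) and Gsdmd in the Cxcl11 cluster (41.4 CPM).

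Aim2 divided the T/NK class. Cells of the cluster led by Xcl1, Il17a, Gzma and Ncr1, genes of natural killer and activated T cells (130 cells), had 137 CPM (72 UMIs; 107 to 172), and those of the cluster led by Tcf7 and Lef1, genes of naive and memory T cells (105 cells), had 60.3 CPM (18 UMIs; 35.7 to 95.2). Casp4 was at 45.6 CPM (24 UMIs) in the first and had 0 UMIs in the second, which allows up to 10.04 CPM. A cluster led by the plasma and B cell genes Mzb1, Jchain, Igkc and Pax5 (118 cells, 109 of them in no class) had 116 CPM of Aim2 (83.0 to 158). Over whole clusters the Xcl1 cluster had the most Aim2 of the 23, at 156 CPM. A cluster led by Nyap2, Slc9b2, Oscar, an osteoclast receptor gene, and Mt3 (367 cells) had 96.8 CPM of Nlrp3, and one led by the endothelial gene Cldn5 (105 cells) had 66.0 CPM.

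Over the 23 clusters the levels of the members ran together in a few pairs. Pearson correlations of log2(CPM + 1) were 0.78 for Gsdmd with Pycard, 0.75 for Aim2 with Pycard and 0.74 for Casp4 with Nlrp3. The lowest was −0.45 for Gsdme with Nlrc4. A small tumour cluster led by Krt7 (69 cells) had 0 UMIs of Aim2, Pycard, Casp4 and Gsdmd, where intervals reached 20.4 CPM. Its weight in the correlations of these genes, here and with other genes below, was not tested. Of 11148 genes with at least 200 UMIs, those with the pattern most like Nlrp3 were Ccrl2 (r = 0.973), Il1rn, the interleukin-1 receptor antagonist (0.971), and Plek (0.966). For Casp4 they were Tlr4, the lipopolysaccharide receptor (0.934), Snap23 (0.933) and Ell2 (0.924). For Pycard they were Rilpl2 (0.942), Pik3r5 (0.931) and Camta2 (0.909), and for Gsdmd Pip5k1c (0.911), Camta2 (0.9001) and Trappc14 (0.872). Camta2 was thus near both the adaptor and the pore former.

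For Aim2 the most alike were Dock10 (0.905), St8sia4 (0.904) and Arhgap25 (0.90001), and for Nlrc4 Bach2os (0.845), Gm16014 (0.837) and Cd83 (0.808). Casp1 had the weakest matches, Morc3 (0.760), Il18, a cytokine that caspase-1 matures (0.757), and Oas2, an interferon-induced enzyme (0.708). For Gsdme they were Tmem40 (0.790), Stim2 (0.776) and Rasa2 (0.773). These are descriptions over clusters of 1 library, which share cells of a lineage and their depth.

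The other genes of the pathway were described from 5 lists of 57 genes, of which 56 were found and 48 had at least 20 UMIs. Of 20 gene and class pairs with 0 UMIs in the class, 9 were too sparse for the limit of 3 counts to reach 2-fold, and these 9 are not counted as low in what follows. The shares of all genes past 2-fold in each class, given above, are the background of these counts. Of 11 other sensors, partners and adaptors, 2 were at least 2 times higher in neutrophils (10% of all genes) and 5 at most 0.5 times (59.5%). The 2 were Nlrp12, a sensor of the NLR family, at 17.5 CPM and 35.8 times (23.4 to 56.9), and Mefv, which encodes pyrin, at 88.0 CPM and 6.45 times (5.80 to 7.18). In macrophages 4 were at least 2 times higher (6.71% of all genes) and 2 at most 0.5 times (25.6%). Naip5, a partner of Nlrc4 that binds flagellin, was at 11.4 CPM and 4.61 times (3.50 to 6.18), Naip6 at 4.50 CPM and 3.22 times (2.20 to 4.83) and Mefv at 0.413 times (0.370 to 0.461). Nlrc4 and its Naip partners were thus high in the same class, though reads of the near-identical Naip genes may be misassigned. In fibroblasts 8 of 11 were at most 0.5 times (26.2% of all genes), in tumour cells 7 (26.5%) and in T/NK cells 5 (35.5%).

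Of 8 cargo cytokines and antagonists, 3 were at least 2 times higher in neutrophils (10% of all genes) and 2 at most 0.5 times (59.5%). Il1b, the main cargo of caspase-1, was at 9712 CPM and 5.38 times (5.32 to 5.43), Il1rn at 498 CPM and 3.09 times (2.97 to 3.21) and Il1r2, the decoy receptor and one of the neutrophil markers checked above, at 1202 CPM and 14.0 times (13.5 to 14.5). In macrophages 0 were at least 2 times higher (6.71% of all genes) and 2 at most 0.5 times (25.6%). Il1a was there at 585 CPM and 1.69 times (1.64 to 1.73) and Il1b at 2075 CPM and 0.531 times. Of the 5 classes, neutrophils thus held the most Nlrp3 and Il1b on the CPM scale, and transcripts of both antagonists as well. Il33, an alarmin of stromal cells, was at 237 CPM in fibroblasts and 250 times the other kept cells (190 to 335). Il1b was at 0.0487, 0.0594 and 0.0497 times in fibroblasts, tumour cells and T/NK cells.

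Of 17 upstream signals and regulators, 3 were at least 2 times higher in neutrophils (10% of all genes) and 5 at most 0.5 times (59.5%). The 3 were led by Serpinb1a, an inhibitor of neutrophil proteases and inflammatory caspases, at 102 CPM and 10.9 times (9.69 to 12.2). Irf8 and Panx1 were among the 5 (0.114 and 0.147 times). In macrophages 3 were at least 2 times higher (6.71% of all genes) and 2 at most 0.5 times (25.6%). P2rx7, the ATP receptor upstream of Nlrp3, was there at 66.7 CPM and 3.43 times (3.10 to 3.79) and Irf8 at 3.59 times (3.40 to 3.78). In neutrophils P2rx7 was at 0.280 times. In fibroblasts Casp12 was at 47.8 CPM and 9.80 times (8.06 to 11.9), 1 of 4 of the list at least 2 times higher (19.2% of all genes). In T/NK cells Txnip was at 388 CPM and 2.85 times (2.54 to 3.19), 1 of 2 (19.0% of all genes).

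Of 9 other gasdermins, membrane rupture genes and death proteases, Ninj1, which tears the membrane after pores have formed, was at 301 CPM and 2.03 times in macrophages (1.96 to 2.11). It was at 0.170, 0.153 and 0.107 times in fibroblasts, tumour cells and T/NK cells. Elane, a granule protease that can cut gasdermin D, was at 7.57 CPM and 10.1 times in neutrophils (57 UMIs; 6.60 to 15.5). Gzmb and Gzma, granzymes of which the first can cut gasdermin E, were at 717 and 651 CPM in T/NK cells, 157 and 54.5 times the other kept cells. Of the 3 necroptosis genes, Ripk3 was at 22.1 CPM and 2.39 times in macrophages (2.05 to 2.79), and had 0 UMIs in tumour cells, at least 20.1-fold lower than in the other kept cells at the limit of 3 counts. Mlkl, the executioner of necroptosis, was at 23.4 CPM in tumour cells and 1.74 times (1.36 to 2.20), and at 0.101 times in neutrophils (0.0520 to 0.177).

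**Figure D5:**
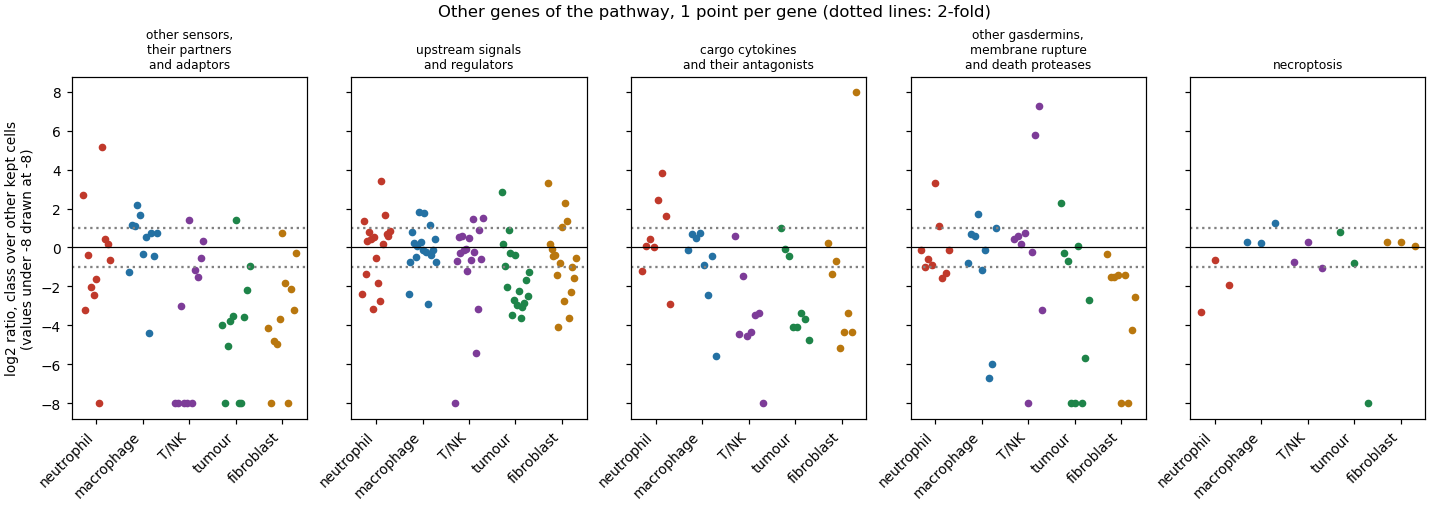
Log2 ratio of CPM, class over the other kept cells, for the other genes of the pathway with at least 20 UMIs, 1 point per gene, in 5 lists and 5 classes; dotted lines mark 2-fold and points beyond the axis are drawn at its lower edge. At the limit of 3 counts, 8 of 11 genes of the sensor list are at most 0.5 times in fibroblasts (26.2% of all genes), 7 in tumour cells (26.5%) and 5 in T/NK cells (35.5%). Il33 stands alone in fibroblasts at 250 times.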

How the data were processed

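Single-cell RNA was measured in 1 treated and 1 PBS library, and only the counts of the treated library were analysed. The deposited values are raw UMI counts per gene and barcode, written by Cell Ranger 8.0.1 per the file headers. The submitters' processing notes name the tools STAR and Cell Ranger, with the genome build and gene annotation not given in the sources used here. The matrix was tied to the treated library by its barcodes, since all 10835 barcodes listed by the authors for the experimental group were in it and 37 of 11643 for the control group. How the authors chose the kept cells is not recorded. The kept cells had up to 19989 UMIs, and 1097 of the 1474 left-out barcodes had at least 20000.

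The 8 genes, the class rules, the lists and the comparisons were chosen with earlier results of these data known. A cell went to the first class whose rule it met. The neutrophil rule was S100a8, S100a9, Csf3r and G0s2 at 2% of UMIs or more, the fibroblast rule Col1a2, Col3a1 and Dcn at 0.5%, and the tumour rule Krt8, Krt18, Krt7 and Epcam at 0.1%. The T/NK rule was Cd3e, Cd3g, Trbc2 and Ncr1 at 0.1%, and the macrophage rule C1qa, C1qb, Csf1r, Apoe and Lyz2 at 0.3%. UMIs were summed over cells, and ratios of class to the other kept cells were given for genes with at least 20 UMIs. Since UMIs are counted at 3′ ends and levels of different genes depend on capture, levels were compared between cells and not between genes.

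Clustering used Python 3.11.15, numpy 2.4.6, scipy 1.17.1, pandas 2.3.3 and leidenalg 0.10.2, with 10000 counts per cell, 2000 variable genes, 30 components, 15 neighbours and resolution 1, leaving out the 8 genes and the listed genes. Doublets were scored with scanpy 1.11.5. Cells were thinned to 1000 UMIs for shares at equal depth. Named were up to 4 genes per list and class with at least 50 UMIs and the largest ratio in either direction, of which a part is printed, P2rx7 and Ninj1 also in other classes, the 3 genes most like each member and the 4 leading genes of a cluster. The clusters described, the clusters of lymphoid, Oscar and endothelial genes and the motifs were picked after their values were seen. The ratio step was tested on simulated data. The ratios were recomputed under 10 other settings. Gm12250 of the lists was not found.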

Additional observations from a re-analysis of the deposited data

Results flagged for a closer look

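Of the barcodes that the authors did not keep, 436 met the tumour class rule, beside 322 kept tumour cells. All 8 genes had UMIs in these 436, which no comparison above used, above the limit that a count of 0 allows. Their median depth was 29962.5 UMIs. Gsdme had 423 UMIs in them, 27.4 CPM (interval 24.9 to 30.2), against 25.5 CPM in the kept tumour cells, and a UMI was found in 53.2% of these barcodes. Casp1 had 309 UMIs, 20.05 CPM (17.9 to 22.4), against 24.3 CPM in the kept tumour cells, and a UMI was found in 42.9%. On the CPM scale the Gsdme and Casp1 values were close to those of the kept tumour cells, at a larger depth. The other 6 had 272 UMIs (Nlrp3), 151 (Pycard), 132 (Casp4), 125 (Gsdmd), 38 (Aim2) and 29 (Nlrc4). Nlrp3 was lower in these barcodes, at 17.6 CPM (15.6 to 19.9) against 29.8 CPM (24.2 to 36.2) in the kept tumour cells. Pycard, Casp4, Gsdmd, Aim2 and Nlrc4 were also lower in CPM, with intervals that overlapped those of the kept tumour cells.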

How the results depend on the processing

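No paired analysis was possible because each group had 1 library and the labels give no replicate numbers. Of the 40 pairs of gene and class, 24 were past 2-fold. Leaving out cells that met 2 or more rules ended and added 0 of these, leaving out the 5% highest doublet scores ended 0 and added 1, doubling the class shares ended 2 and added 2, and halving them ended 1 and added 1. Scaling mattered most for neutrophils. On UMIs per cell the neutrophil ratios were 0.852 for Nlrp3, 0.875 for Casp4 and 0.937 for Gsdme, and with the median of all genes set to 1 the Pycard ratio was 1.09. Of the 8 genes, the number past 2-fold in neutrophils was 3 in place of 5 with the other classes at equal weight, where Nlrc4 and Pycard were no longer past it. In fibroblasts it was 8 in place of 5 after thinning. In T/NK cells it was 3 in place of 5 with the mean over cells. In macrophages it was 5 in place of 3 with the mean over cells, with UMIs per cell and after thinning. The macrophage ratio of Nlrp3, 0.862, was 1.72 over all barcodes, 0.443 after thinning and 0.434 with the mean over cells. The T/NK calls of Pycard and Casp1 and the near-call of Aim2 crossed 2-fold in several settings. The tumour call of Gsdme ended with the mean over cells (1.41) and its macrophage call on UMIs per cell (0.701). The cause was not tested. At resolution 2, with 33 clusters, the highest Nlrp3 level of a cluster was 2624 CPM in place of 1763. Counts under 30 UMIs, as for most members in T/NK cells, limit what can be told apart, and free RNA, depth and doublets were measured but not removed.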
